A study of Mus musculus with 6 samples.

Results

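Expression of 38 skeletal muscle genes was described in palatal shelves of mouse embryos at E14.25. The genes were chosen by symbol, as regulators of the myogenic lineage, components of the sarcomere and genes of muscle excitation, and all 38 were among the 23366 genes of the count files. The palatal shelves are paired outgrowths of the upper jaw that fuse into the secondary palate. The study compared shelves of wild type embryos (genotype WT, replicates 2, 3 and 4) with shelves of embryos of genotype Kmt2d fl/fl Wnt1-Cre (replicates 1, 2 and 3), all at E14.25. It addressed what loss of the histone methyltransferase KMT2D from neural crest cells does to the developing face. Whether the wild type embryos carried a floxed allele or Cre is not stated in the labels. The Wnt1-Cre transgene acts in the neural crest lineage, so cells of other lineages in the same shelves are not expected to lose Kmt2d. The word knockout below is the label of those 3 libraries.

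Skeletal muscle of the head arises from mesoderm, while the connective tissue around it comes from the neural crest. PAX7 marks muscle progenitors, MYF5 and MYOD1 commit cells to the lineage, and MYOG drives their differentiation into fibres that fuse and assemble sarcomeres. In a sarcomere, actin thin filaments with troponin slide along myosin thick filaments. Titin spans from the Z-disc to the M-line. Excitation starts at the acetylcholine receptor, and calcium release through RYR1 then triggers contraction.

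Myogenic regulators bind E-boxes, whose core is CANNTG and whose muscle-preferred form is CAGCTG. The 250 bases before the annotated start were read from RefSeq (build GRCm38.p6) for the 30 members matched by symbol. CAGCTG, which reads the same on both strands and is a special case of CANNTG, was found in 13 of 30 (43.3%), against 14.7% of 27025 genes with such a window. At least 2 copies were found in 3 members (10%, against 1.39%), and these 3 windows are shown with CAGCTG in capitals. The window of Ttn is shown because Ttn had the most extreme value of the list. It holds no CAGCTG, and its capitals mark a match to the MEF2 motif and an E-box of the form CAGGTG. The windows are chr1:87205561-87205810 (plus strand) for Chrng, chr1:135836084-135836333 (plus strand) for Tnnt2, chr2:73580339-73580588 (minus strand) for Chrna1 and chr2:76982548-76982797 (minus strand) for Ttn. Each is written 5′ to 3′ along the gene's strand and overlaps no annotated exon.
Chrng: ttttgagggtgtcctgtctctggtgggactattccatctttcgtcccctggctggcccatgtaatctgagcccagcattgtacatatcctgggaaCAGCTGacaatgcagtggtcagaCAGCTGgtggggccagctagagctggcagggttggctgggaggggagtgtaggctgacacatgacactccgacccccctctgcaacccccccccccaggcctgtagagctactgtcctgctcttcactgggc
Tnnt2: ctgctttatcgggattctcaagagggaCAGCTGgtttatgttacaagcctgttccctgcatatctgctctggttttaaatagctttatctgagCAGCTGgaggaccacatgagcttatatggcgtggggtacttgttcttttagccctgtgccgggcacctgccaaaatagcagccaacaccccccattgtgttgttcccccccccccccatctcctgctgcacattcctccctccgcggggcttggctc
Chrna1: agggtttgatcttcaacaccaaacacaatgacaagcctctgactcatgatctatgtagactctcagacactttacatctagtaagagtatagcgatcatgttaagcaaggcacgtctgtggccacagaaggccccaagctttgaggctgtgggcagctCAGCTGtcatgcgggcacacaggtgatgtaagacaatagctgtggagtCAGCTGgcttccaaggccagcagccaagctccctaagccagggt
Ttn: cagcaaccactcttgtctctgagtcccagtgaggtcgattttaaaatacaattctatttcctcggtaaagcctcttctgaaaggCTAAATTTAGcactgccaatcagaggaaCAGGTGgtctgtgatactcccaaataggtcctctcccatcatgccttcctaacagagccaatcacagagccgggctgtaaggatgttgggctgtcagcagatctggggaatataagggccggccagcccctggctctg
Any CANNTG was found in 25 of 30 members (83.3%), against 69.3% of all genes. The MEF2 motif, searched on both strands, was found in 3 of 30 (Myh8, Ttn and Casq2, 10%), against 1.99%. These are matches of letters and not measured binding.

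Read pairs assigned to genes ranged from 12721979 to 24916079 per library. Knockout replicate 2 stood apart: it had the fewest, 47.5% of its pairs fell outside annotated genes against 12.3% to 18.1% elsewhere, and it lay at 77.0 on a first principal component that held 51.2% of the variance, where the others lay between -31.0 and -1.46. Kmt2d, listed under its older symbol Mll2, stood at 196.8, 211.1 and 170.6 CPM in the wild type libraries 2, 3 and 4 and at 254.0, 538.6 and 193.5 CPM in the knockout libraries 1, 2 and 3 (CPM, counts scaled to the normalised library size). A count over the whole gene does not show whether part of it was deleted, so it does not check the label. The comparisons below are therefore given with and without knockout replicate 2. Where 3 values follow each other, they are in the order of replicates 2, 3 and 4 for the wild type and 1, 2 and 3 for the knockout.

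The shelves contained little muscle RNA in 5 libraries and more in knockout replicate 2. The 38 genes took 0.138%, 0.0689% and 0.0847% of gene counts in the wild type libraries 2, 3 and 4, and 0.0721%, 1.39% and 0.0470% in the knockout libraries 1, 2 and 3. The 95% Wilson intervals reached at most 0.00644 percentage points to either side and cover counting error only. Ttn alone made up 75.8% of the muscle pairs in knockout replicate 2, against 8.28% to 22.1% elsewhere. Without Ttn the shares were 0.121%, 0.0589% and 0.0777% in the wild type, against 0.0561%, 0.336% and 0.0406% in the knockout. Knockout replicate 2 was thus still highest and knockout replicate 3 lowest. In bulk tissue, fewer cells of a type and less RNA per cell cannot be told apart.

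All 38 genes had at least 1 count in every library. The filter on low counts kept 36, and Myf6 and Ckm were too low to test. Knockout replicate 2 had the highest CPM of the 6 libraries for 34 of these 36 genes, with Myog and Cacng1 as the exceptions. Among the other 5 libraries, wild type replicate 2 was highest for 31 genes, knockout replicate 3 lowest for 25 and wild type replicate 3 lowest for 8. The spread within the wild type was wide: the ratio of wild type replicate 2 to wild type replicate 3 had a median of 1.92 and ranged from 1.33 to 3.40, and wild type replicate 3 was the lowest wild type library for 34 of 36 genes. Within the knockout, replicate 1 exceeded replicate 3 for 32 genes. The genes were therefore high or low together in a library within each genotype, and the values by library show the same order for most genes.

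**Figure D1:**
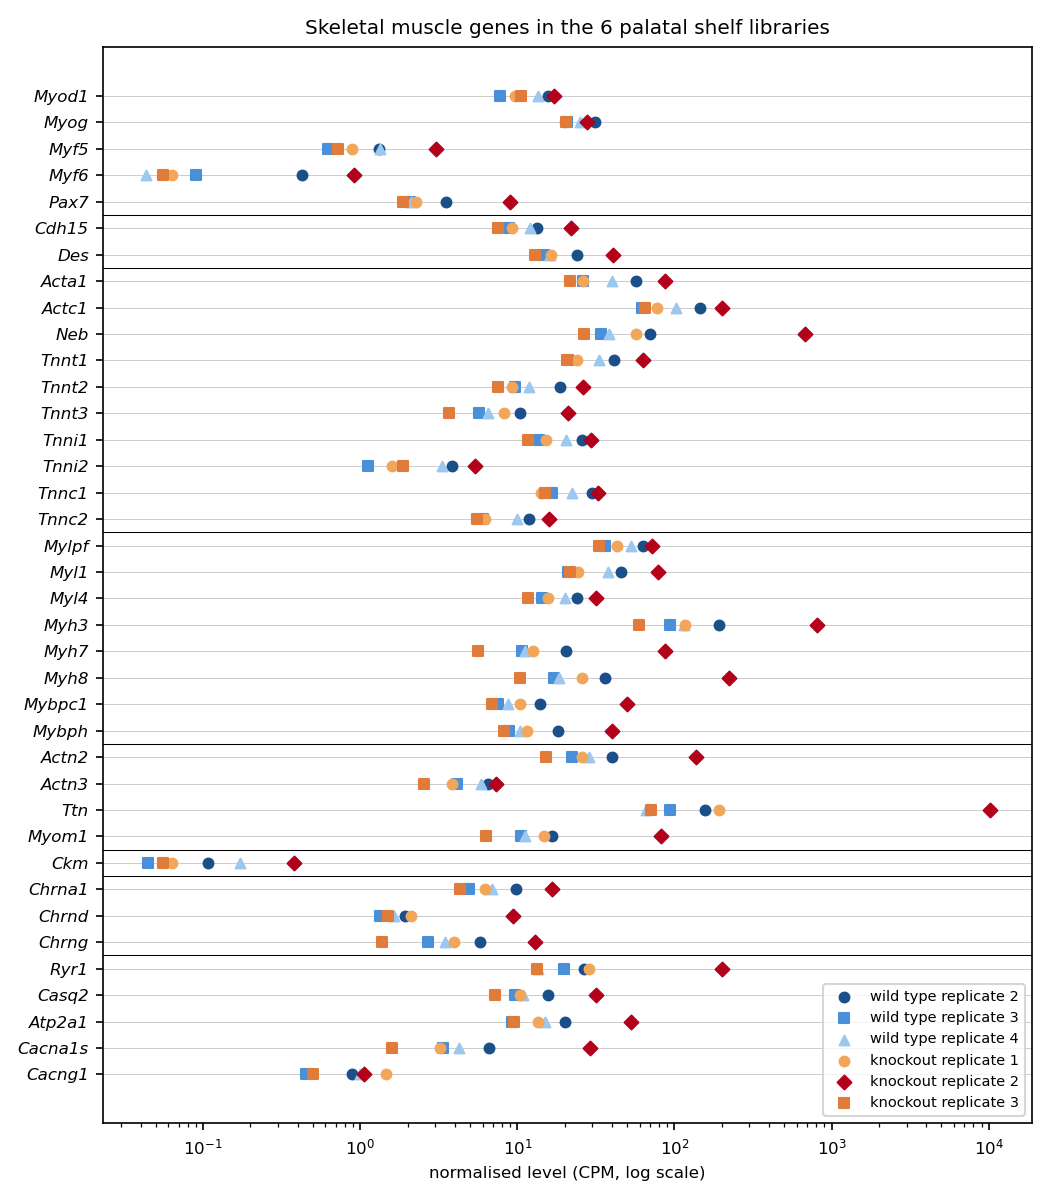
Normalised level (CPM, log axis) of each of the 38 skeletal muscle genes in the 6 libraries, ordered by role with lines between roles; each symbol is 1 library. Knockout replicate 2 (dark red diamonds) lies to the right for nearly all genes and reaches 10160 CPM for Ttn, far to the right of the other 5 libraries.

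Among the regulators, Myog, which drives terminal differentiation, stood at 31.4, 20.7 and 25.1 CPM in the wild type libraries 2, 3 and 4, and at 20.1, 27.5 and 20.4 CPM in the knockout libraries 1, 2 and 3. Knockout replicates 1 and 3 lay just below the lowest wild type library and knockout replicate 2 within the wild type range. The log2 fold change of knockout over wild type was -0.19 (SE 0.19, adjusted p = 0.667, edgeR quasi-likelihood test) with 6 libraries, and -0.36 (SE 0.17, adjusted p = 0.321) without knockout replicate 2. Myod1, which commits cells to the muscle lineage, had 15.7, 7.80 and 13.4 CPM in the wild type and 9.62, 17.1 and 10.6 CPM in the knockout. The groups overlapped, and the log2 fold change was 0.01 (SE 0.31) with 6 libraries and -0.30 (SE 0.28) with 5.

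Myf5, which acts with Myod1 early in the lineage, was low at 1.32, 0.627 and 1.33 CPM in the wild type and 0.886, 3.03 and 0.718 CPM in the knockout. These values rest on 13 to 40 read pairs per library, and the groups overlapped with and without knockout replicate 2. Pax7, the progenitor factor, had 3.49, 2.06 and 2.11 CPM in the wild type and 2.28, 8.93 and 1.88 CPM in the knockout. It was 3.78-fold higher in knockout replicate 2 than in the mean of the other 5 libraries, whereas Myog was 1.17-fold higher. Myf6, a regulator of later fibre differentiation, had 12, 2 and 1 read pairs in the wild type, against 1, 12 and 1 in the knockout. Wild type replicate 2 and knockout replicate 2 thus carried most of its counts.

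Des, the muscle intermediate filament, had 24.0, 14.7 and 16.2 CPM in the wild type and 16.5, 40.9 and 13.0 CPM in the knockout, with a log2 fold change of 0.35 (SE 0.42) with 6 libraries and -0.33 (SE 0.23) with 5. Cdh15, the muscle cadherin, ranged from 7.57 CPM in knockout replicate 3 to 22.1 CPM in knockout replicate 2, the libraries that were also lowest and highest for Des. For both genes the sign turned when knockout replicate 2 was left out, and in neither fit did they pass the test.

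The thin filament group holds the actins, nebulin and the troponins. Actc1, the cardiac alpha-actin that embryonic skeletal muscle also makes, had 146.0, 62.0 and 101.7 CPM in the wild type and 76.9, 200.9 and 64.8 CPM in the knockout. Acta1, the skeletal alpha-actin, had 56.8, 26.2 and 39.9 CPM in the wild type and 26.1, 87.0 and 21.6 CPM in the knockout. Actc1 and Acta1 encode near-identical proteins, and how the authors' counting split reads between them is uncertain. Both were highest in knockout replicate 2 by a modest margin, 2.22-fold and 2.55-fold over the mean of the other 5 libraries.

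Neb encodes nebulin, a giant protein along the thin filament, and had 69.8, 34.1 and 38.3 CPM in the wild type and 56.6, 672.9 and 26.7 CPM in the knockout. Knockout replicate 2 was 14.9-fold above the mean of the other 5, and the rest of the knockout overlapped the wild type. The log2 fold change of Neb was 2.41 (SE 1.12, adjusted p = 0.374, edgeR) with 6 libraries and -0.20 (SE 0.54, adjusted p = 0.907) with 5. The 7 troponin genes, which make thin filaments respond to calcium, were 1.65-fold (Tnnc1) to 3.05-fold (Tnnt3) higher in knockout replicate 2 than in the mean of the other 5. Without knockout replicate 2, all 10 thin filament genes had negative log2 fold changes, from -0.79 (Acta1) to -0.20 (Neb), and none passed the test.

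Of the thick filament genes, Myh3, the embryonic myosin heavy chain, had 192.9, 93.6 and 115.1 CPM in the wild type and 117.3, 803.6 and 59.1 CPM in the knockout. Its log2 fold change was 1.29 (SE 0.87) with 6 libraries and -0.61 (SE 0.52) with 5. Myh8, the perinatal chain, was 10.4-fold and Myh7, the slow chain, 7.15-fold higher in knockout replicate 2 than in the mean of the other libraries. The light chains Mylpf, Myl1 and Myl4, whose transcripts are short, were 1.58-fold, 2.61-fold and 1.85-fold higher there. The myosin binding protein genes Mybpc1 and Mybph lay between, at 5.22-fold and 3.49-fold.

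Ttn, which encodes titin, had 156.5, 93.3 and 66.3 CPM in the wild type and 191.0, 10160 and 71.2 CPM in the knockout. In read pairs these were 4396, 2083 and 1541 in the wild type, against 3019, 134243 and 1288 in the knockout. Knockout replicate 2 held 87.8-fold more than the mean of the other 5 libraries, the highest such ratio of all 14233 genes tested. Ttn was 1.06% of all gene counts there and ranked 4 among all genes, whereas it ranked between 678 and 2851 elsewhere. Knockout replicates 1 and 3 lay on either side of the wild type mean. The log2 fold change was 5.04 (SE 1.81, adjusted p = 0.319, edgeR) with 6 libraries and 0.31 (SE 0.66, adjusted p = 0.882) with 5. With each library's trend with transcript length removed, it was 3.33 with 6 libraries and -0.03 with 5. With 6 libraries it was 2.43 under limma voom and 0.93 under voom with sample quality weights.

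The other Z-disc and M-line genes differed among themselves. Actn2 and Myom1, an alpha-actinin of the Z-disc and the M-line protein myomesin, were 5.17-fold and 6.88-fold higher in knockout replicate 2 than in the mean of the other 5. Actn3, the alpha-actinin of fast fibres, was only 1.60-fold higher. Actn3 had 6.48, 4.12 and 5.90 CPM in the wild type and 3.86, 7.34 and 2.54 CPM in the knockout.

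The acetylcholine receptor genes Chrna1, Chrnd and Chrng encode the alpha, delta and embryonic gamma subunits. Chrna1, whose window with 2 CAGCTG copies is printed above, had 9.86, 4.93 and 6.89 CPM in the wild type and 6.20, 16.5 and 4.31 CPM in the knockout. Its log2 fold change was 0.30 (SE 0.50) with 6 libraries and -0.49 (SE 0.32) with 5. Chrng ranged from 1.38 to 13.0 CPM and Chrnd from 1.34 to 9.38 CPM, each with its highest value in knockout replicate 2. Tnnt2, the cardiac troponin T that embryonic skeletal muscle also makes, also has 2 CAGCTG copies in its window. It was 2.31-fold higher in knockout replicate 2, against 2.56-fold for Chrna1 and 3.78-fold for Chrng. These genes were picked for their copy number, and a relation between the motif and this ratio was not tested. Cacna1s, whose window also has CAGCTG, was 7.56-fold higher, and Myog, whose window has none, was 1.17-fold higher.

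Among the genes of calcium handling, Ryr1, the calcium release channel, had 26.4, 19.9 and 13.5 CPM in the wild type and 28.5, 199.6 and 13.3 CPM in the knockout. Its log2 fold change was 2.01 (SE 0.90, adjusted p = 0.364, edgeR) with 6 libraries and 0.05 (SE 0.45, adjusted p = 0.972) with 5, where its sign turned under some alternatives. Cacna1s, the voltage sensor that opens RYR1, had 6.62, 3.36 and 4.26 CPM in the wild type and 3.23, 28.8 and 1.60 CPM in the knockout. The calcium pump Atp2a1 and the calcium store protein Casq2 were 3.93-fold and 2.94-fold higher in knockout replicate 2. Cacng1, a channel subunit near 1 CPM, was highest in knockout replicate 1 (1.46 CPM). Ckm, the muscle creatine kinase, was barely detected, with 3, 1 and 4 read pairs in the wild type, against 1, 5 and 1 in the knockout.

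The excess in knockout replicate 2 grew with transcript length. Length was not used to choose the genes. The extreme value of Ttn, the longest member, was known in advance, so values with Ttn are not independent of that choice. Lengths are those of the longest transcript per symbol in GENCODE M21. Muscle genes under 1000 nt had a median ratio of knockout replicate 2 to the mean of the other 5 libraries of 1.82, and those of 1000 to 2000 nt one of 2.23. The median was 3.11 at 2000 to 5000 nt, 6.85 at 5000 to 10000 nt, 9.61 for Ryr1 (15358 nt) and 35.9 for Neb and Ttn (22489 and 106824 nt). These medians were computed on log2 CPM with 0.5 CPM added and are slightly lower than plain ratios for low genes. Genes outside the muscle lists had medians of 0.662, 0.789, 0.970, 1.20, 1.48 and 1.99 in the same 6 length classes. Long transcripts were thus also higher in that library outside muscle, by less. Across 35 muscle genes with a mean of at least 1 CPM, the log2 ratio and log2 length had a Pearson r of 0.895, which was 0.832 without Ttn. Across 13213 other genes r was 0.354. Genes share libraries and are not independent replicates.

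**Figure D2:**
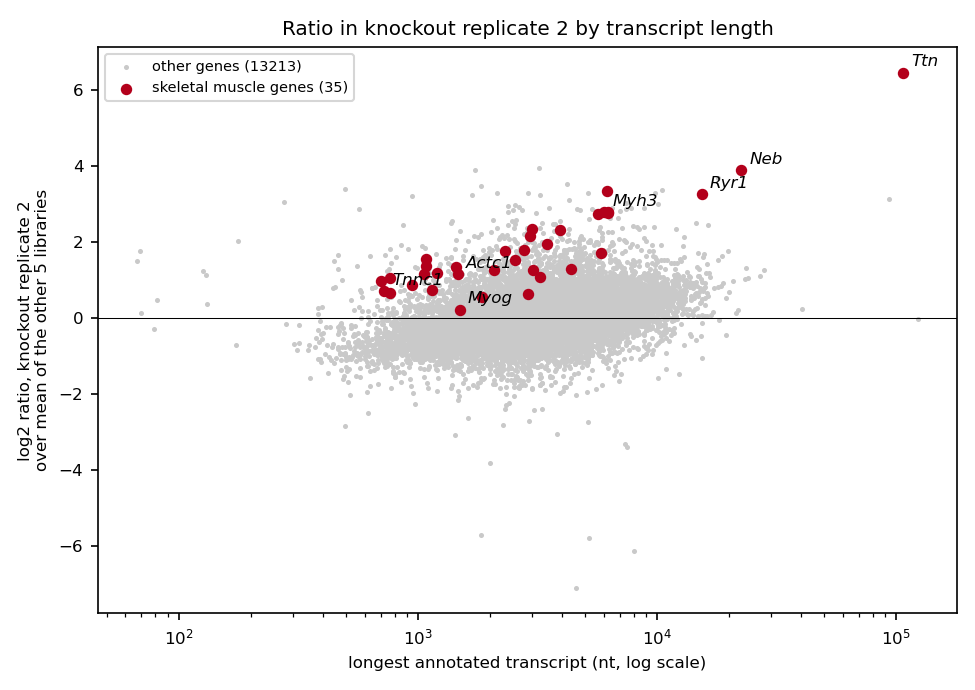
Log2 ratio of knockout replicate 2 to the mean of the other 5 libraries against the length of the longest annotated transcript (nt, log axis), for 35 skeletal muscle genes (red) and 13213 other genes (grey). Red points tend to rise with length, up to Ttn (87.8-fold), and the grey cloud rises less steeply. Myog (1.17-fold) lies below some shorter genes, such as Tnnc1 (1.65-fold).

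Levels per kb of transcript allow genes to be compared within a library. Ttn stood at 1.48%, 2.08% and 0.900% of the per-kb level of Actc1 in the wild type libraries 2, 3 and 4, against 3.42%, 69.7% and 1.51% in the knockout libraries 1, 2 and 3. Neb stood at 3.13%, 3.60% and 2.47% in the wild type, against 4.82%, 21.9% and 2.70% in the knockout. Myh3 stood at 32.3%, 36.8% and 27.6% in the wild type, against 37.2%, 97.7% and 22.3% in the knockout. In 5 libraries, long muscle transcripts thus had few reads per kb beside short ones. The slope of log2 per-kb level on log2 length over the muscle genes was -0.88 to -0.62 in those 5 and -0.03 in knockout replicate 2. The same library had 47.5% of its pairs outside annotated genes and the fewest gene pairs. The part of either in the muscle values was not tested.

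**Figure D3:**
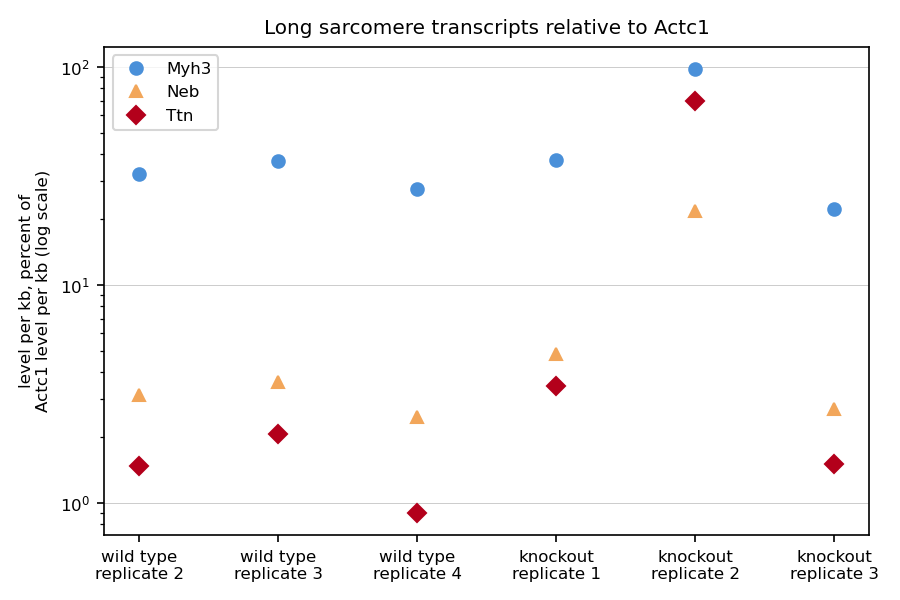
Level per kb of transcript of Myh3, Neb and Ttn as a percent of the level per kb of Actc1 in the same library (log axis), 1 point per gene and library. Ttn lies between 0.900% and 3.42% in 5 libraries and at 69.7% in knockout replicate 2.

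The excess was not limited to long transcripts. The 15 tested members under 2000 nt summed to 525.2, 262.4 and 398.9 CPM in the wild type libraries 2, 3 and 4, and to 295.7, 709.2 and 250.2 CPM in the knockout libraries 1, 2 and 3. The 8 members of at least 5000 nt other than Ttn summed to 372.3, 191.3 and 214.0 CPM in the wild type and 261.2, 2106 and 125.0 CPM in the knockout. Knockout replicate 2 was highest in both length classes and further from the others in the long one.

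The comparison of the genotypes gave no muscle gene past the test. With 6 libraries, 0 of 36 members had an adjusted p under 0.05 (edgeR quasi-likelihood test), against a background of 0.534% of 14233 genes tested, and DESeq2 and limma voom likewise called 0. At an unadjusted p under 0.05 there was 1 member, Ttn, which was higher, against 7.51% of all genes higher at that level. The groups overlapped for all 36 members, whereas they did not overlap for 23.5% of all genes. The median log2 fold change was 0.39, against 0.01 over all genes, with 30 members positive and 6 (Myog, Tnni1, Tnnc1, Tnnc2, Mylpf and Actn3) negative, against 48.5% negative over all genes. These signs rest on knockout replicate 2: the median was -0.25 under limma voom with sample quality weights, which lower the weight of a library that stands apart.

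Without knockout replicate 2, 0 of 36 members passed the test, against 2.12% of 14450 genes, and DESeq2 and limma voom again called 0. The median log2 fold change turned to -0.48, against 0.02 over all genes. Negative values were found for 32 of 36 members (46.7% of all genes), and Ttn, Ryr1, Chrnd and Cacng1 were positive. The members share libraries, so their signs are not independent. Values ranged from -1.02 (Cacna1s) to 0.31 (Ttn). At an unadjusted p under 0.05 there were 5 members, all lower in the knockout (Tnnt2, Tnnc1, Tnnc2, Actn3 and Cacna1s), against 9.27% of all genes lower at that level. The smallest adjusted p was 0.213 (Actn3, log2 fold change -0.81, SE 0.29, edgeR). In 6 members (16.7%) both remaining knockout libraries lay below all 3 wild type libraries (Myog, Acta1, Tnnt2, Tnnc1, Actn3 and Cacna1s), against 15.9% of all genes. That share is near the background. The ribosomal RNA gene Rn45s took 35.1% and 30.0% of gene counts in these 2 knockout libraries, against 16.2% to 20.7% in the wild type. Rn45s rose by 1.10 (SE 0.17, adjusted p = 0.0424, edgeR) and Lars2 by 1.42 (SE 0.16, adjusted p = 0.00658) on the log2 scale. With both genes left out of library sizes and tests, the members' median was -0.48.

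These genes were singled out after their values were seen. Tnnc1, the slow and cardiac troponin C, is an example: it had 29.8, 16.6 and 22.4 CPM in the wild type and 14.17 and 15.03 CPM in knockout replicates 1 and 3. Wild type replicate 3 lay close to the knockout libraries. Leaving out that library as well gave the only call in the list, Myl1, an essential light chain, which was lower in the knockout (log2 fold change -0.87, SE 0.14, adjusted p = 0.0302, edgeR, 2 libraries against 2). With wild type replicate 3 kept, Myl1 did not pass (-0.61, SE 0.35).

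**Figure D4:**
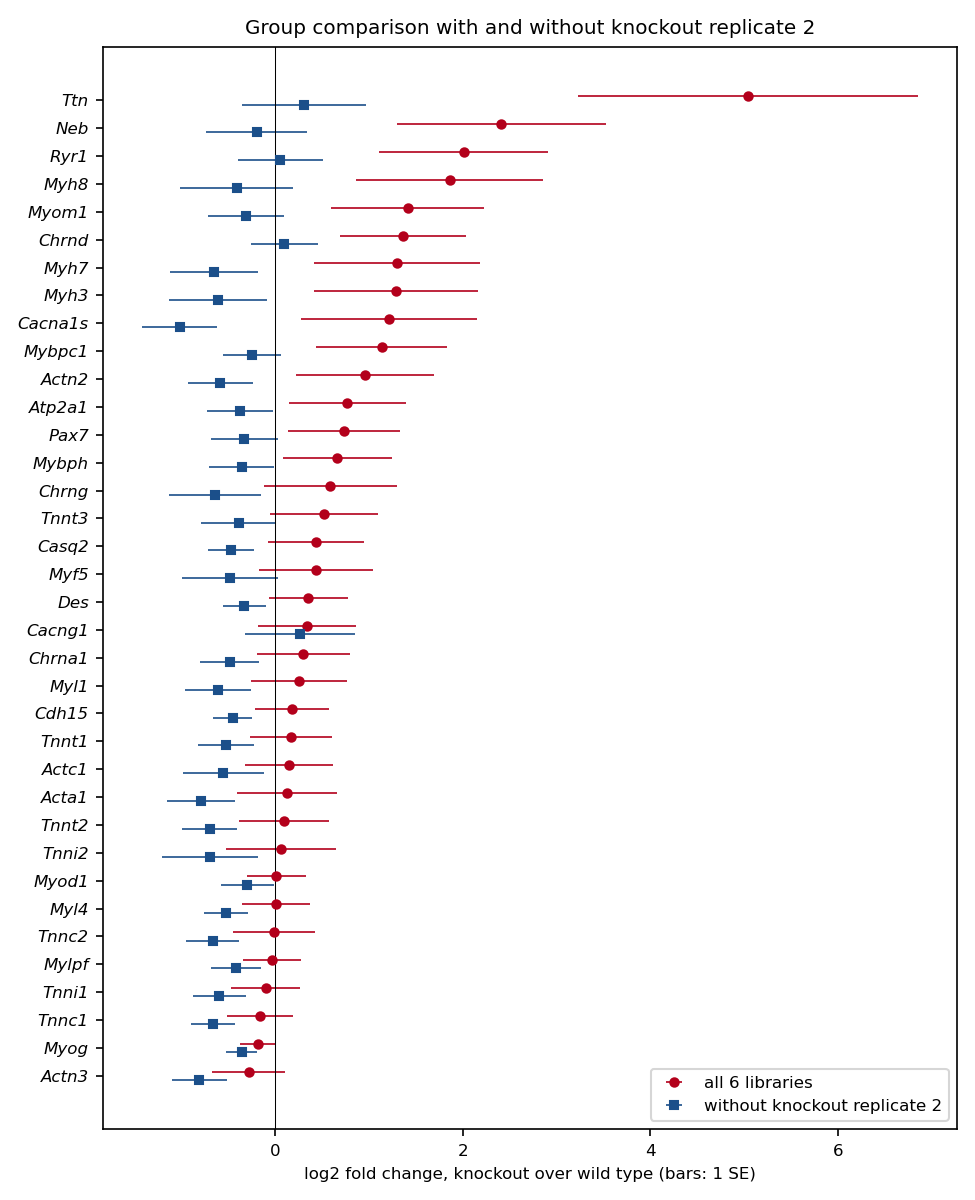
Log2 fold change of knockout over wild type for the 36 tested skeletal muscle genes, with 6 libraries (red circles) and without knockout replicate 2 (blue squares); bars are 1 standard error of the edgeR fit. Most genes move from positive to negative when knockout replicate 2 is left out, and Ttn moves from 5.04 to 0.31.

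Shares between related genes compare isoforms within a library, apart from how much muscle it holds. The fast isoform Tnni2 made up 12.8%, 7.55% and 14.1% of troponin I counts in the wild type, against 9.47%, 15.5% and 13.9% in the knockout. The fast Tnnc2 made up 28.3%, 26.7% and 30.7% of troponin C counts in the wild type, against 30.7%, 33.0% and 26.9% in the knockout. The fast Tnnt3 made up 20.2%, 21.5% and 16.5% of Tnnt1 and Tnnt3 counts in the wild type, against 25.6%, 25.1% and 15% in the knockout. The slow isoforms thus gave most troponin counts in every library, and the groups overlapped for all 3 troponins.

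Myh7, the slow heavy chain, made up 8.17%, 8.83% and 7.77% of heavy chain counts (Myh3, Myh7 and Myh8) in the wild type, against 8.09%, 7.77% and 7.50% in the knockout. Knockout replicate 2, with by far the most heavy chain counts, thus had a share of Myh7 inside the range of the other libraries. Acta1 made up 28.0%, 29.7% and 28.2% of alpha-actin counts (Acta1 and Actc1) in the wild type, against 25.4%, 30.2% and 25.0% in the knockout. Without knockout replicate 2 the knockout mean was 3.44 percentage points lower and the groups did not overlap. This was singled out after the values were seen, the other shares overlapped, and no share was tested without knockout replicate 2. How reads were split between Acta1 and Actc1 is uncertain. Myog made up 96.0%, 97.1% and 94.96% of the sum of Myf5 and Myog in the wild type, against 95.8%, 90.1% and 96.6% in the knockout, lowest in knockout replicate 2. None of the 6 shares differed by a two-sided exact permutation test with 6 libraries (p = 0.3 to 0.6, all 0.6 after adjustment over the 6 shares). The smallest p that 3 against 3 libraries can give is 0.1.

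**Figure D5:**
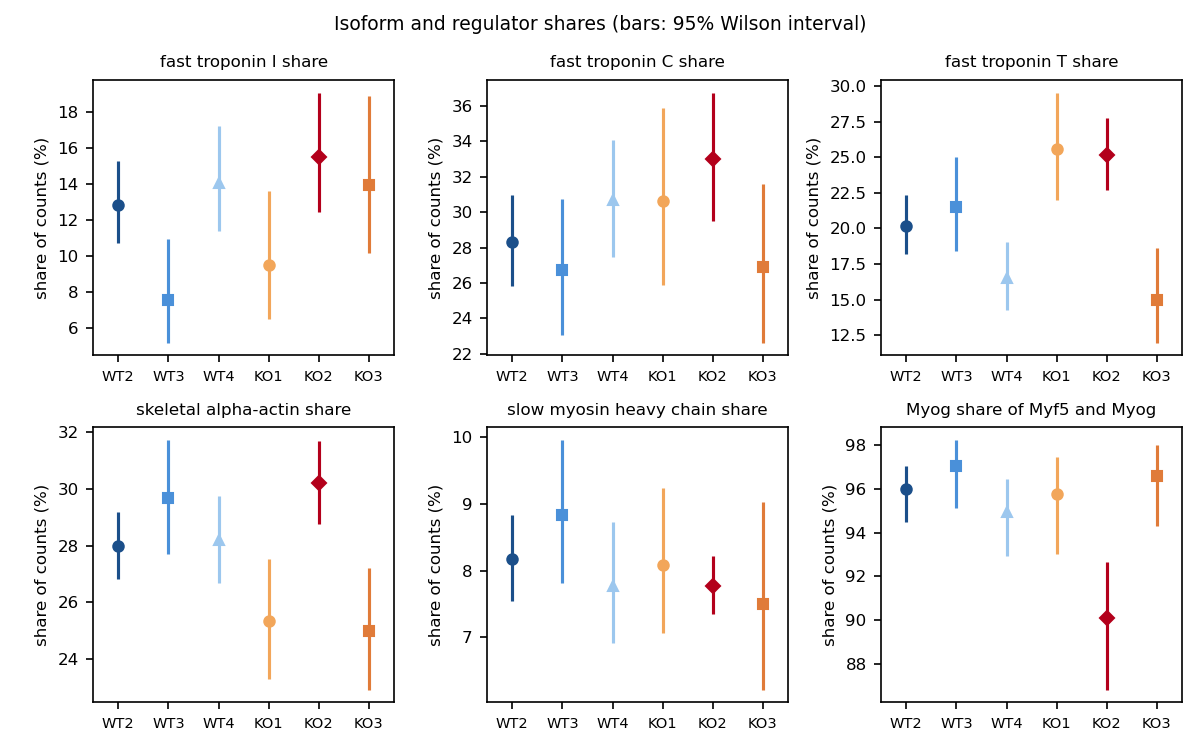
Share of counts (percent) of 1 gene within a small family in each library (WT2 to WT4 wild type, KO1 to KO3 knockout), with 95% Wilson intervals for counting error; the axes do not start at 0. The ranges of the groups overlap in every panel, and knockout replicate 2 is lowest for the Myog share (90.1%).

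Other muscle genes were described from a list of 119 that are not members, of which 99 were tested. With 6 libraries 0 of 99 passed the edgeR test and 9 had an unadjusted p under 0.05, of which 7 were higher (7.07%, against 7.51% of all genes). DESeq2 called 2, Six4 and Eya1, and limma voom called 0. The median log2 fold change was 0.31, with 31 of 99 negative (31.3%, against 48.5% of all genes). Without knockout replicate 2 the median was -0.47, with 84 of 99 negative (84.8%, against 46.7% of all genes). In 32 of 99 (32.3%, against 15.9% of all genes) both remaining knockout libraries lay below all 3 wild type libraries, and in 7 (7.07%) they lay above. At an unadjusted p under 0.05 (edgeR), 21 of 99 were lower (21.2%, against 9.27% of all genes) and 6 (6.06%) were higher. For the higher direction the share of all genes was not counted, so these 2 counts have no background. The genes share libraries, so none of these shares counts independent genes. After adjustment 3 passed (3.03%, against 2.12%). Six4 and Eya1, upstream regulators of muscle progenitors that also act outside muscle, rose by 0.59 (SE 0.12, adjusted p = 0.0332, edgeR) and 0.55 (SE 0.09, adjusted p = 0.0178) on the log2 scale. Tpm1, a tropomyosin also made outside muscle, fell, with a log2 value of -0.38 (SE 0.07, adjusted p = 0.0268, edgeR). Six4 did not pass with the length trend removed (adjusted p = 0.0623, edgeR). With 1 more library left out in turn, Eya1 passed only without knockout replicate 3, Tpm1 only without knockout replicate 1, and Six4 only without wild type replicate 4 or knockout replicate 1.

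Eya1 had 60.5, 56.2 and 57.8 CPM in the wild type and 93.3, 110.6 and 78.1 CPM in the knockout, and Six4 had 37.6, 35.4 and 45.2 CPM in the wild type and 55.4, 73.9 and 63.7 CPM in the knockout. For both genes all knockout libraries lay above all wild type libraries, an order that no member of the 38 shows. Tpm1 had 408.8, 432.9 and 440.5 CPM in the wild type and 329.9, 503.3 and 329.7 CPM in the knockout.

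In the remaining lists 0 genes passed in either edgeR fit. The smallest unadjusted p values belonged to Jam2 (membrane adhesion, log2 fold change 1.05 with 6 libraries and 0.57 without knockout replicate 2), Slc2a4 (glucose transport, 0.46 with 6 libraries), Dysf (membrane repair, -0.47 without it), Casq1 (calcium store, -0.86 with 6 libraries) and Hrc (calcium store, -0.99 without it).

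Markers of other cell types were read beside the muscle genes. Of the 6 cardiac markers, Nppa, Nppb and Myl7 were at 0 in every library, and the list summed to 1.17 to 2.17 CPM in the wild type and 0.884 to 6.51 CPM in the knockout. Myh6 and Tnni3, also on that list, had counts in every library and were highest in knockout replicate 2 (4.47 and 2.04 CPM). Whether any of the Actc1, Tnnt2, Tnnc1 and Myl4 counts came from cardiac cells was not tested. Smooth muscle and pericyte markers summed to 112.3 to 165.1 CPM in the wild type and 87.9 to 143.6 CPM in the knockout, with knockout replicate 2 (143.6 CPM) inside the wild type range. Osteoblast markers summed highest in knockout replicate 2 (324.3 CPM, against 100.2 to 218.6 CPM in the wild type). Runx2 gave 190.3 CPM of that sum, Ibsp 55.2 CPM, Sp7 49.3 CPM and Phex 26.2 CPM, and each was highest in that library. Spp1 went the other way, with 2.35 CPM there, against 5.42 to 13.1 CPM in the wild type. Schwann cell and nerve markers summed to 164.1 CPM in knockout replicate 2, inside the wild type range of 108.1 to 167.4 CPM. The summed levels of the epithelium, endothelium, macrophage, cartilage, tendon and erythroid markers were lowest in knockout replicate 2, but not every single marker was. Scx was lowest in knockout replicate 1 (1.83 CPM, against 3.18 CPM in knockout replicate 2). Col11a2 was lowest in knockout replicate 3 (6.74 CPM, against 17.6 CPM in knockout replicate 2). Markers of palate mesenchyme summed to 1203 to 1281 CPM in the wild type and 1430 to 1554 CPM in the knockout. Prrx1 carried most of that difference, from a wild type mean of 591.3 ± 34.8 CPM to a knockout mean of 801.2 ± 135.1 CPM (SD, n = 3 each), while the means of Twist1, Meox2, Tbx22 and Osr2 were lower in the knockout. None of the markers passed the edgeR test with 6 libraries. Without knockout replicate 2, 2 of 7 epithelial markers (Cdh1 and Krt15), 1 of 6 macrophage markers and 1 of 5 tendon markers (Scx) fell. These passed the edgeR test at an adjusted p under 0.05, as 2.12% of all genes did in either direction. The rest of these lists and all other marker lists had none past it. The part of the tissue taken at dissection in the muscle values was not tested.

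Outside all lists, the 12 genes whose log2 CPM over the 6 libraries was most like the mean of the 36 tested members were Sel1l3, Mylk4, Sytl2, Srpk3, Antxr1, Nes, Scmh1, Dio3os, Alpk2, Ank1, Ablim3 and Tigd3. Their Pearson r ranged from 0.983 to 0.999 over 6 libraries and from 0.926 to 0.995 over the 5 without knockout replicate 2. Mylk4, a kinase gene, had 9.57, 4.48 and 5.81 CPM in the wild type and 5.82, 44.2 and 3.81 CPM in the knockout. Sel1l3, the most alike, had 5.52, 2.82 and 3.57 CPM in the wild type and 3.54, 14.001 and 2.38 CPM in the knockout. Both have knockout replicate 2 highest, wild type replicate 2 next and knockout replicate 3 lowest. They were chosen for their likeness to the muscle genes, so this shared order is no separate result.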

How the data were processed

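The authors deposited raw counts, read pairs per gene symbol in 1 file for each library, from 25 bp paired reads of a stranded mRNA kit (per the labels' protocols). The submitters' processing notes name TopHat2, SAMtools, HTSeq and build mm9. The annotation, strand setting and treatment of multiple alignments were not given in the sources, so related family members and overlapping genes are uncertain. The 5 category lines of the counter were kept out of the library sizes.

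The counts were TMM-normalised, filtered by filterByExpr and tested with edgeR 4.0.16 (R 4.3.3) by the quasi-likelihood test with Benjamini-Hochberg adjustment over all genes tested, threshold 0.05, on 6 libraries and without knockout replicate 2. The test was checked on simulated data with the same spread for every gene, no library standing apart and no length trend. That check does not cover a library like knockout replicate 2. Alternatives were other size factors, DESeq2 1.42.0, limma 3.58.1 (voom, with and without sample quality weights), other filters, Rn45s and Lars2 left out, each library left out and the replicate number as a block. Added after seeing the data were the earlier edgeR method and removal of each library's length trend. Transcript lengths (GENCODE M21, GRCm38) matched all 38 members. Same-group libraries differed beyond sampling noise (chi-square per degree of freedom 11.1 to 154), and the labels call them biological replicates. Pairs with no gene made up 14.8%, 15.4% and 12.3% in wild type replicates 2, 3 and 4, against 18.1%, 47.5% and 14.20% in knockout replicates 1, 2 and 3.

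The members and lists were chosen with earlier results of these data known. Full values are given for Ttn, members past the test, the highest gene of each role and the 5 regulators. From each other muscle list, genes past the test or the smallest p were named, and outside all lists the 12 genes most alike. Further genes were named after their values were seen.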

Additional observations from a re-analysis of the deposited data

Results flagged for a closer look

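Counts outside the genes were not used in the comparisons, and 4 of their values lay above the highest wild type library. Pairs outside annotated genes made up 18.1% in knockout replicate 1 and 47.5% in knockout replicate 2, against at most 15.4% in the wild type. Pairs with more than 1 alignment made up 30.3% in knockout replicate 1 and 27.7% in knockout replicate 3, against at most 20.99% in the wild type.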

How the results depend on the processing

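With 6 libraries, 0 members passed in all 18 settings, and with 5 libraries in 15 of 16; the exception, Myl1, came with wild type replicate 3 left out. Signs and sizes moved: 32 of 38 members took both signs over the settings with 6 libraries, with a median spread of 0.95 on the log2 scale, while 28 stayed negative in every setting with 5. Depth limits Myf6 and Ckm most, and 3 libraries a group limit all p-values.

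Removing each library's length trend gave a Ttn log2 fold change of 3.33 with 6 libraries, against 5.04, and -0.0265 for Ttn and -0.0466 for Ryr1 with 5; Ryr1 was also -0.0462 with voom and -0.0603 with quality weights. Under voom with sample quality weights and 6 libraries, the members' median turned to -0.25 and that of the other muscle genes to -0.26; Chrna1 was -0.24, Des -0.15, Myf5 -0.15, Myh3 -0.19, Myod1 -0.17 and Pax7 -0.10, and Ttn, Neb and Ryr1 kept their sign at 0.93, 0.25 and 0.37. Under plain voom these 3 were 2.43, 1.13 and 1.05. Myod1, near 0, also turned with upper-quartile factors (-0.0034), without Rn45s and Lars2 (-0.0214), with voom (-0.0235) and with no filter (-0.0301). The cause of these turns was not tested.

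Of the other muscle genes, DESeq2 and quality weights each called 2 with 6 libraries (Six4 and Eya1), and DESeq2 called 7 with 5. Over all genes, the 76 calls became 486 with DESeq2, 359 with quality weights, 298 with the block, 113 without the length trend and 306 without knockout replicate 2. With 5 libraries the 306 became 691 with DESeq2 and 145 without wild type replicate 3.

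Leaving out each library gave, with 6 libraries, a members' median of -0.48 to 0.79, 0 to 3 other muscle genes called with a median of -0.47 to 0.60, and log2 fold changes of -0.49 to 0.64 for Chrna1, -0.33 to 0.64 for Des, -0.48 to 0.79 for Myf5, -0.61 to 1.78 for Myh3, -0.30 to 0.22 for Myod1, -0.20 to 2.94 for Neb and -0.33 to 1.11 for Pax7. The lowest median and the lowest value of each of these genes came without knockout replicate 2. The difference in the fast troponin I share was -0.48 to 3.23 percentage points and in the Myog share -3.06 to 0.19. From the 5 libraries, leaving out 1 more gave 0 to 1 members and 0 to 5 other muscle genes called, -0.84 to 0.25 for Neb, -0.60 to 0.51 for Ryr1 and -0.58 to 0.85 for Ttn.

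Only replicate numbers 2 and 3 occur in both groups, and nothing ties them to shared litters or days: the deviations of same-numbered libraries correlated at 0.21 for number 2 and -0.14 for number 3. With the replicate number as a block, 0 members passed (median log2 fold change 0.31) and 3 other muscle genes did (Jam2, Myh7b and Six4), and Ttn had 2.82.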
